A study of Mus musculus with 12 samples.

Results

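Dimethylation of histone H3 at lysine 79 (H3K79me2) was mapped by ChIP-seq in reprogramming fibroblasts with and without AF10, and the 4 libraries of this mark are described here. They are 4 of the 12 samples of the series, chosen by their titles. Their lists hold 472731 autosomal peaks, and the 8 lists of the study hold 933917 peaks on all chromosomes. All cells were mouse embryonic fibroblasts of a conditional AF10 line with the OSKM reprogramming factors and rtTA, the transactivator through which doxycycline switches the factors on. The control group (H3K79me2_fl, n = 2) was AF10 fl/fl and received an empty adenovirus. The Cre group (H3K79me2_creAF10, n = 2) was AF10 -/-, made so by an adenovirus that expressed Cre recombinase from a CMV promoter. The control libraries are called fl1 and fl2 below, and the others Cre1 and Cre2, each by its replicate number. Both groups received doxycycline at 2 µg/mL from 2 days after the virus and were fixed on day 4 of reprogramming. They were grown over a feeder layer of DR4 fibroblasts, and chromatin of the feeders may enter every library. The share of cells that lost AF10 is not given, and neither the deletion nor the fibroblast identity could be checked here, because the mm9 peaks carry no gene names and no mm9 annotation was used. For the same reason results are given for regions and not for genes, and no sequence is printed.

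DOT1L is the enzyme that methylates lysine 79 in the globular core of histone H3, and it can add up to several methyl groups in turn. AF10 (Mllt10) is a cofactor of DOT1L that binds histone H3 and promotes the higher methylation states. H3K79me2 is found over the first part of transcribed genes and spreads further into the gene body where transcription is strong, so that it forms domains of many kilobases.

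The peaks of a broad mark are often broken pieces of one enriched stretch, so peaks of a library that lay within 1 kb of each other were joined into domains. Autosomal peaks numbered 89615 and 187210 in fl1 and fl2, and 75276 and 120630 in Cre1 and Cre2. The shortest peak was 51 and 116 bp in the controls and 147 and 126 bp in the Cre libraries, and the widest was 4773 bp in fl1 against 23026 to 26728 bp in the other 3. The fl1 library therefore stands apart as a list of short pieces. The peak names of all 4 lists carry the same calling label, and whether fl1 was called with another setting is not given in the sources used here, so every control mean below carries that doubt. Most group differences and counts that pool fl1 with other libraries are also given without it, and the other values are given for each library. The lists hold no read counts, so sequencing depth is not known for any of them and counting error cannot be stated. No label says that the replicates came from separate cultures, so the p-values measure the spread between these samples, which may be technical.

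Joining gave 61486 and 118220 domains in fl1 and fl2, and 35412 and 72920 in Cre1 and Cre2. Cre1 had the fewest domains, and Cre2 lay between the controls. On average a control library had 89853 ± 40117 domains and a Cre library 54166 ± 26522 (SD, n = 2), a log2 difference of -0.75 (exact two-sided permutation test, p = 0.667). The smallest p that 2 libraries against 2 can give is 0.333, and over the 5 library values tested here the Benjamini-Hochberg adjusted p was 0.833 or more. The direction depended on the shortest calls. With domains of at least 1 kb only, the number was 7499 and 18971 in control and 13664 and 14965 after Cre, both Cre libraries lay between the controls, and the log2 difference was 0.26 (exact permutation p = 1). Among these wider domains it was -0.41 without fl1 and 0.93 without fl2.

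The summed length of the domains was 29.5 and 102 Mb in fl1 and fl2 and 66.0 and 71.6 Mb in Cre1 and Cre2. Both Cre libraries lay between the controls, which differed more from each other than from either Cre library. The means were 65.7 ± 51.3 Mb without Cre and 68.8 ± 4.00 Mb after Cre (SD, n = 2), a log2 difference of 0.33 (exact permutation p = 1). It was -0.57 without fl1 and 1.22 without fl2, so that its sign followed the control that was kept.

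The median domain was wider in each Cre library than in either control, and this order came from the narrow end of the lists. The median domain spanned 73 and 180 bp in fl1 and fl2, and 493 and 213 bp in Cre1 and Cre2. The groups did not overlap, and the log2 difference of 1.50 gave the smallest p of the design (exact two-sided permutation p = 0.333). The shortest peak was also longer in both Cre lists, at 147 and 126 bp against 51 and 116 bp, so a wider domain and a call that dropped short pieces cannot be told apart. Among domains of at least 1 kb the medians were 1966 and 2334 bp in control and 2579 and 2306 bp after Cre. There the groups overlapped and the log2 difference was 0.19 (exact permutation p = 0.667). The widest 1% of domains began at a width of 6254 and 12261 bp in control and 17742 and 11628 bp after Cre, with Cre2 between the controls.

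**Figure D1:**
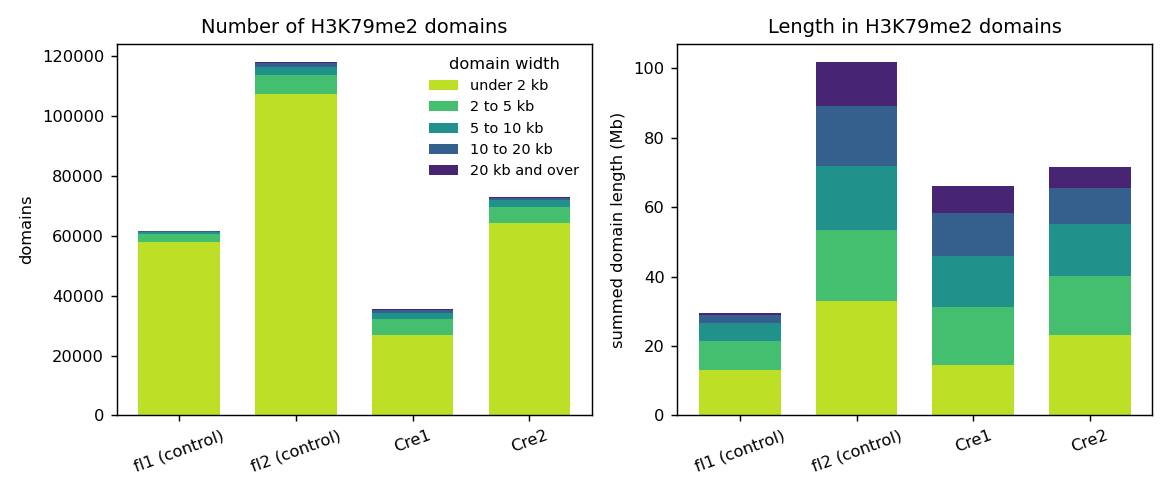
Number of domains (left) and their summed length in Mb (right) in each of the 4 libraries, split by domain width. Domains under 2 kb made up 94.0% and 90.8% of the control lists and 75.8% and 88.3% of the Cre lists, but 22.1% to 44.7% of the length.

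Most domains were narrow in every library, while most of the length lay in wider ones. Domains under 2 kb were 94.0% and 90.8% of all domains in fl1 and fl2 and held 44.7% and 32.4% of the length. In Cre1 and Cre2 they were 75.8% and 88.3% of the domains and held 22.1% and 32.5% of the length. The width at which wider domains held 50% of the length was 2389 and 4528 bp in control and 5483 and 4042 bp after Cre. Single peaks that joined no other made up 81.9% and 80.5% of the control domains and 59.9% and 76.5% of the Cre domains.

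Broad domains, of 10 kb or more, were present in each library of both groups. They numbered 202 and 1683 in fl1 and fl2, and 1166 and 995 in Cre1 and Cre2. Their share of the summed length was 9.93% and 29.5% in control and 30.3% and 23.2% after Cre. Cre1 lay just above the higher control and Cre2 between the controls, and the difference of 7.01 percentage points was smaller than the SD of the controls, 13.9 points (exact permutation p = 0.667). Without fl1 it was -2.78 points. Domains of 20 kb and over numbered 20 and 423 in control, and 256 and 209 after Cre.

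Peaks filled more of the domains in the Cre libraries than in the controls, by a margin that was thin against fl2. The peaks covered 53.4% and 68.5% of the domain length in fl1 and fl2, and 72.0% and 68.7% in Cre1 and Cre2. The groups did not overlap, with a difference of 9.37 percentage points (exact two-sided permutation p = 0.333), but it was 1.82 points without fl1. Within broad domains alone the fill was 53.3% and 71.7% in control and 76.9% and 71.4% after Cre, and there the groups overlapped. A broad domain was pieced together from a mean of 16.7 and 13.2 peaks in control and 10.4 and 12.4 peaks after Cre.

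The bases that 2 libraries shared showed which lists resembled each other, and the groups did not order them. The control pair shared 12.0 Mb, which was 16.3% of the bases covered in either list and the lowest share of the 6 pairs. The Cre pair shared 28.6 Mb, or 42.0% of either, the highest share. The fl2 library shared 36.8% with Cre1 and 35.7% with Cre2, more than it shared with the other control. The fl1 library shared 18.7% and 19.2% with Cre1 and Cre2, also more than with the other control. The mean over the 2 pairs within a group was 29.1% and over the 4 pairs between groups 27.6%, a difference of 1.53 percentage points against an SD of 11.3 points over the 6 pairs. Pairs have libraries in common, so no test was made.

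Lists of unequal length cannot share many bases, so each shared length is also given as a share of both lists. The 12.0 Mb of the control pair were 76.0% of fl1 and 17.1% of fl2. Of fl1, 63.2% was also covered in Cre1 and 66.4% in Cre2. Of fl2, 45.2% was covered in Cre1 and 44.8% in Cre2, and in the other direction 66.5% and 63.6% of the Cre lists were covered in fl2. The Cre lists covered 60.2% of replicate 1 and 58.1% of replicate 2 in each other. Each Cre list was thus found more completely in fl2, the longest list, than in the other Cre list. When the widest domains of every library were taken up to the length of fl1, the control pair shared 32.2% of either and the Cre pair 59.0%, and the pairs of fl2 with Cre shared 52.6% and 50.1%. The order of the 6 pairs at its ends was as before.

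Over all 4 libraries, 100.3 Mb were covered in at least 1 list. Of these, 52.1% were covered in exactly 1 library, 22.0% in 2, 18.1% in 3 and 7.89% in all 4. Without fl1, 98.0 Mb were covered, 53.3% in 1 library, 23.4% in 2 and 23.3% in all 3. The length covered in a single library was 2.35 Mb for fl1, which was 14.9% of that list, and 28.4 Mb for fl2, which was 40.6% of it. For Cre1 and Cre2 it was 9.80 and 11.7 Mb, or 20.6% and 23.8% of the lists.

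**Figure D2:**
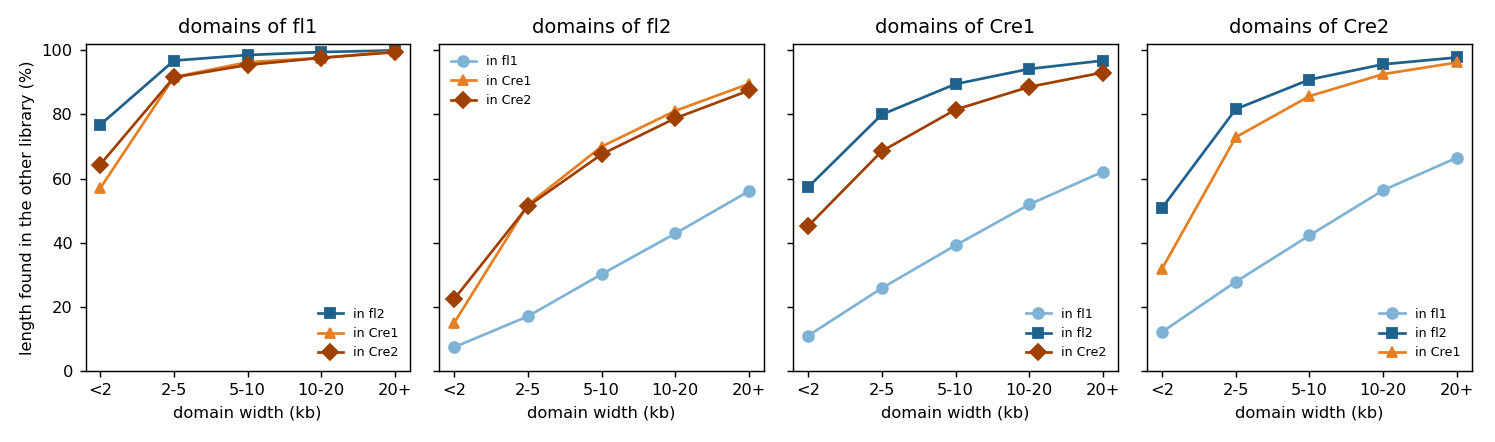
Share of the domain length of 1 library (panel title) that lay inside domains of each other library (lines), in percent, by the width of the domain in kb. In all 4 panels the share goes up with width, between the 2 controls and between the 2 Cre libraries as well as between groups.

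Wide domains were found again in other libraries far more completely than narrow ones, and this held for replicates of 1 group as well as between groups. For fl2, the share of its domain length found in Cre1 went from 15.0% under 2 kb to 51.8% at 2 to 5 kb, 70.0% at 5 to 10 kb, 81.1% at 10 to 20 kb and 89.6% at 20 kb and over. In Cre2 the same classes gave 22.4%, 51.4%, 67.6%, 78.8% and 87.5%. Found in the other control, they gave 7.37%, 17.0%, 30.1%, 42.9% and 56.1%. The increase with width therefore also appeared where AF10 was present in both libraries.

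Between the Cre libraries the order was alike. Domains of Cre1 were found in Cre2 to 45.2% under 2 kb and to 93.1% at 20 kb and over. Those of Cre2 were found in Cre1 to 31.9% and 96.2%. In fl2 the domains of 20 kb and over of Cre1 and Cre2 were found to 96.8% and 97.8%. The few domains of that width in fl1, 20 in number, were found to 99.7% and 99.4% in the Cre libraries and to 100% in fl2.

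Whether a broad domain met any domain in another library was nearly always true, but whether it met a broad one was not. Of the 1683 broad domains of fl2, all touched a domain in each of the other 3 libraries. A broad domain was met in Cre1 by 58.5% of them, in Cre2 by 51.3% and in fl1 by 10.8%. Of the 1166 broad domains of Cre1, 87.2% met a broad domain in fl2 and 68.4% in Cre2. Of the 995 of Cre2, 90.9% met one in fl2 and 81.3% in Cre1. Breadth was thus shared less often than presence, and the longest list had a broad partner for most broad domains of the Cre lists.

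To compare the libraries on a common set of regions, the peaks of all 4 were pooled without regard to group and joined within 1 kb. This gave 150052 union domains of 138.8 Mb. Of the 137004 union domains under 2 kb, 71.7% came from a single library and 1.47% were present in all 4. The fl2 library alone contributed 60848 of these, fl1 alone 14193, and Cre1 and Cre2 alone 3289 and 19867. Presence in all 4 libraries was 51.6% of 7111 at 2 to 5 kb, 90.1% of 3235 at 5 to 10 kb, 99.3% of 1822 at 10 to 20 kb and 100% of 880 at 20 kb and over. None of the union domains of 5 kb or more was seen in 1 library only. Rebuilt without fl1, 136731 union domains were left, and presence in all 3 libraries was 4.17% under 2 kb, 82.0% at 2 to 5 kb, 99.3% at 5 to 10 kb and 100% from 10 kb up. A union domain can be wide because it was called in several libraries, so its width and its presence are not independent.

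The cover of union domains put the libraries in 1 order at every width from 2 kb up. In the 880 union domains of 20 kb and over, peaks covered 19.5% and 62.9% of the length in fl1 and fl2, and 58.6% and 52.0% in Cre1 and Cre2. At 5 to 10 kb they covered 9.64% and 45.1% in control and 38.8% and 34.4% after Cre. Both Cre libraries lay between the controls in every width class, and from 2 kb up closer to fl2 than to fl1. Under 2 kb the cover was 7.78% and 50.1% in control and 9.58% and 25.5% after Cre. Set against fl2, the cover of Cre1 was 0.932 times as high at 20 kb and over, 0.892 at 10 to 20 kb, 0.858 at 5 to 10 kb, 0.753 at 2 to 5 kb and 0.191 under 2 kb. For Cre2 the ratios were 0.826, 0.787, 0.762, 0.704 and 0.510. The ratio of the 2 controls, replicate 1 over replicate 2, was likewise highest in the widest class, with 0.310 at 20 kb and over and 0.155 under 2 kb. Between the Cre libraries, replicate 2 over replicate 1, it stayed between 0.882 and 0.936 from 2 kb up and was 2.67 under 2 kb.

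**Figure D3:**
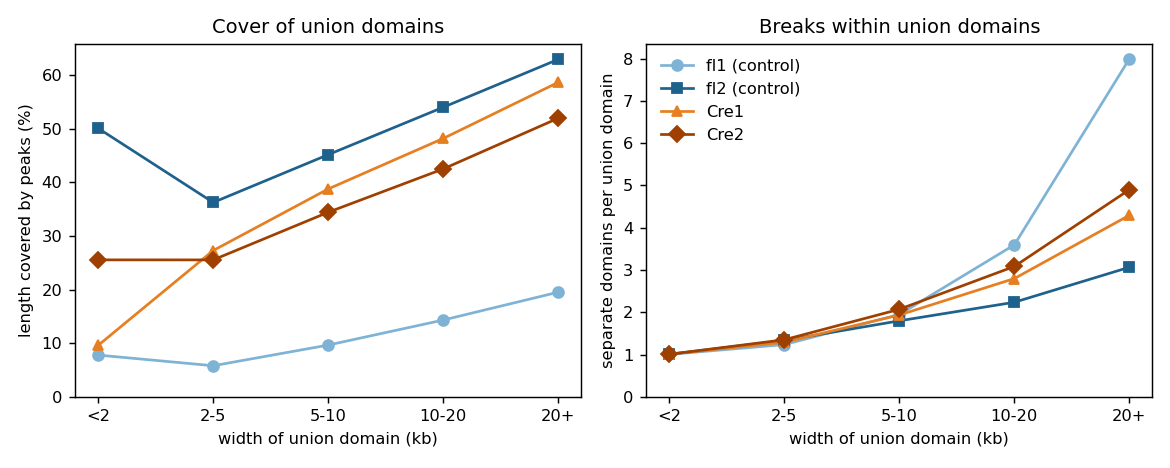
Share of the length of union domains covered by peaks, in percent (left), and mean number of separate domains a library has inside 1 union domain where it is present (right), by width of the union domain in kb, for the 4 libraries. At every width both Cre libraries lie between the controls on the left, and fl1 has the most breaks at 20 kb and over.

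Inside the broad regions the libraries differed both in cover and in how often the mark was broken, while the number of peaks was alike. A union domain of 20 kb and over held a mean of 22.5 and 23.4 peaks in control and 20.0 and 23.5 peaks after Cre. In union domains of 20 kb and over, fl1 had a mean of 8.00 separate domains and fl2 had 3.07, with 4.30 and 4.90 in Cre1 and Cre2. A single unbroken domain was present in 0.114% and 20.7% of them in control and in 10.1% and 6.36% after Cre. The span from the first to the last peak was 88.2% and 98.3% of the union domain in control and 96.4% and 96.5% after Cre. In each of these 3 measures the Cre libraries again lay between the controls.

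Of all 150052 union domains, 3.06% had both Cre libraries above both controls in cover, and 6.22% had both below. At 20 kb and over both Cre libraries were above both controls in 74 of 880, or 8.41%, and both below in 0. At 10 to 20 kb they were above in 193 of 1822 (10.6%) and below in 2 (0.110%), at 5 to 10 kb above in 484 (15.0%) and below in 10 (0.309%), and at 2 to 5 kb above in 1153 (16.2%) and below in 170 (2.39%). Under 2 kb the balance was the other way, with 2689 above (1.96%) and 9146 below (6.68%). The fl1 library had the lowest cover in every class. In union domains rebuilt without it, which was done after seeing the data, both Cre libraries were above fl2 in 69 of 835 at 20 kb and over (8.26%) and below it in 564 (67.5%). Under 2 kb they were above in 2.31% and below in 66.4%, and over all widths above in 3.49% and below in 65.9%. Leaving out another library also moved the counts, and shares over fewer libraries are not on the same scale as those over all. Without fl2, both Cre libraries were above fl1 in all 536 union domains of 20 kb and over. Without Cre1, over all widths, Cre2 was above both controls in 26.1% and below both in 6.89%, which turned the balance. Without Cre2, Cre1 was above both in 10.0% and below both in 13.9%, and at 20 kb and over it was above both in 32.3%.

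**Figure D4:**
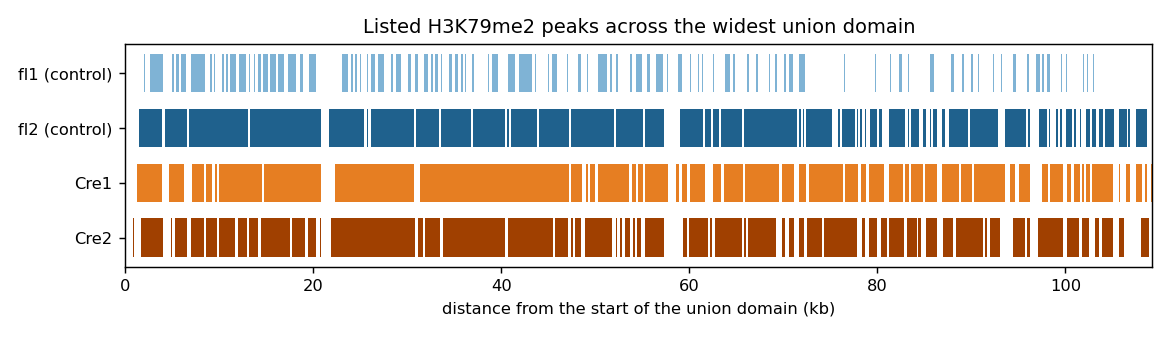
Listed peaks (bars) of the 4 libraries across the widest union domain, plotted as distance in kb from its start. The fl1 library shows 104 short peaks that cover 29.6% of the 109.3 kb, and the other 3 libraries show 49 to 59 longer peaks that cover 75.4% to 80.1%.

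The widest union domain, on chromosome 8 at 111225272 to 111334524 (mm9), shows this pattern in 1 place. It spanned 109.3 kb and was covered to 29.6% and 80.0% in fl1 and fl2, and to 80.1% and 75.4% in Cre1 and Cre2. The fl1 library broke it into 104 peaks and 24 domains, fl2 into 57 peaks and 3 domains, and the Cre libraries into 49 and 59 peaks and 3 and 5 domains. First and last peaks lay 96.2% to 99.5% of the domain apart in all 4 libraries. Its core, at 111247543 to 111321458, was the widest domain of Cre1, with 73.9 kb unbroken. There the peaks covered 28.1% and 83.0% in control and 85.1% and 79.2% after Cre.

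The widest domains of each library were mostly regions that the other libraries also held. The widest of fl2 and of Cre2 was 1 region on chromosome 15, from 61869584 to 61967610 in the control (98.0 kb) and from 61869229 to 61967876 after Cre (98.6 kb). Over the control interval, peaks covered 39.6% and 89.1% in control and 85.0% and 81.7% after Cre. A second region, on chromosome 8, was among the 5 widest in all 4 libraries. It ran unbroken from 125495638 to 125566177 (70.5 kb) in fl2, from 125495840 to 125566164 (70.3 kb) in Cre1 and from 125499762 to 125566175 (66.4 kb) in Cre2. In fl1 it was split into 2 domains, of 32.9 kb from 125533193 and of 30.8 kb from 125501169. A region of chromosome 1 was the fourth widest of Cre1, from 39956987 to 40023227 (66.2 kb), and the third of Cre2, from 39957297 to 40023217 (65.9 kb).

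Other regions among the 5 widest of a library were less uniform. On chromosome 3 at 86898077 to 86978860, an 80.8 kb domain of fl2, peaks covered 33.0% and 81.9% in control and 76.5% and 69.3% after Cre. On chromosome 2 at 128179248 to 128255775, 76.5 kb in fl2, they covered 25.9% and 74.7% in control and 77.8% and 70.1% after Cre. On chromosome 11 at 76139121 to 76213000, 73.9 kb in Cre1, they covered 29.1% and 77.5% in control and 86.4% and 74.5% after Cre. The largest differences between the Cre libraries among these 3 were on chromosome 11, where replicate 2 lay below fl2 and replicate 1 above it. On chromosome 19 at 55816927 to 55880521, 63.6 kb in Cre2, the values were 26.9% and 74.8% in control and 71.9% and 72.4% after Cre. The 5 widest domains of fl1 were shorter, from 30.8 to 37.2 kb. The widest lay on chromosome 4 at 154559902 to 154597107, where peaks covered 64.6% and 96.5% in control and 96.9% and 92.1% after Cre. Of its others, a pair formed the split region of chromosome 8 above, and those on chromosomes 4 and 5 are described with the common regions below. The remaining regions, from fl2 and the Cre libraries, spanned 87251601 to 87326286 on chromosome 8, 130219389 to 130284334 on chromosome 4, and 121204125 to 121261245 on chromosome 7. The lowest cover of these 3 in fl2 or a Cre library was 70.0%, on chromosome 4 in Cre2.

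Regions inside a domain in all 4 libraries numbered 17889 and spanned 20.9 Mb, with 780 of 5 kb or more and 169 of 10 kb or more. The widest lay on chromosome 4 at 154865429 to 154900058 (34.6 kb), with peaks over 60.7% and 95.1% in control and 91.0% and 89.4% after Cre. The next, on chromosome 5 at 93521040 to 93554674 (33.6 kb), was covered to 55.1% and 88.4% in control and to 86.1% and 86.2% after Cre. Another on chromosome 5, at 143552793 to 143579208 (26.4 kb), was covered to 68.0% and 94.2% in control and to 94.2% and 93.6% after Cre. On chromosome 17 at 27737007 to 27760397 (23.4 kb) the values were 69.3% and 99.0% in control and 100% and 98.0% after Cre. On chromosome 2 at 32006668 to 32030089 (23.4 kb) they were 61.0% and 93.2% in control and 96.8% and 93.7% after Cre. The other 5 of the 10 widest, on chromosomes 7, 8, 14 and 15, spanned 23.2 to 32.9 kb. In all 10, both Cre libraries were above fl1, and in 9 of them at least 1 Cre library was below fl2.

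Cover was then compared in windows of 10 kb, which do not depend on how peaks are joined. Of 247215 autosomal windows, 11928 had a mean cover of at least 10% over the 4 libraries and were tested. Their mean cover was 10.3% and 39.0% in fl1 and fl2 and 34.8% and 30.9% in Cre1 and Cre2. The medians were 6.57% and 34.0% in control and 29.1% and 25.6% after Cre. In 58.8% of the windows both Cre values lay between the controls, in 59.9% both were below fl2, and in 98.6% both were above fl1. The controls themselves had 1 order in 99.9% of windows, replicate 1 below replicate 2.

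The limma test with Benjamini-Hochberg adjustment at 0.05 called 0 of the 11928 windows higher (0%) and 0 lower (0%), and 0 had an unadjusted p under 0.05. In simulated windows of the real spread, with noise independent between libraries, the same test recovered 0 of 200 windows moved by 30 percentage points. With 0.1 times that spread it recovered all 200. The simulation did not copy the order of the real controls, with fl1 below fl2 in 99.9% of windows. A count of 0 thus does not show that cover stayed the same. Without fl2 the median difference, Cre mean minus the remaining control, was 21.8 percentage points over the 10533 windows that then passed the minimum cover. Without fl1 it was -5.46 points over 13519 windows. No test is given for these, because with 1 control left its spread would be taken to be that of the Cre pair.

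**Figure D5:**
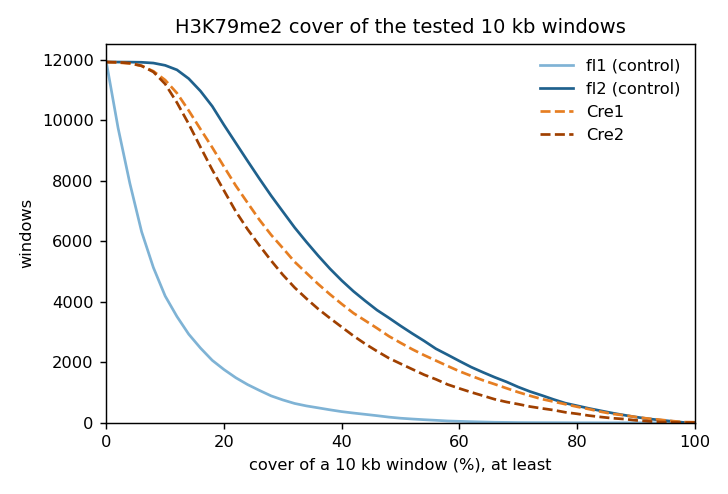
Number of the 11928 tested windows of 10 kb whose H3K79me2 cover was at least the value on the x axis, in percent, for the 4 libraries. At a cover of 10% or more the curve of fl1 is far below the other 3, and both Cre curves lie under that of fl2 over most of the axis.

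Both Cre libraries were above both controls in 1863 windows (15.6%) and below both in 17 (0.143%). Of the 6 arrangements of the libraries into groups of 2, 1 puts both Cre above both controls and 1 puts both below. The arrangements would be equally frequent only if the 4 libraries were exchangeable, and fl1 was below fl2 in 99.9% of windows. Neither share can therefore be judged against 1 in 6, and no gain or loss is read from them. The mean over the group was higher after Cre in 83.1% of windows, with a median difference of 7.31 percentage points. With no minimum cover the direction turned. Over all 112814 windows that held a peak in any library, both Cre libraries were above both controls in 3.72% and below both in 8.44%, the mean was higher after Cre in 33.1%, and the median difference was -0.58 points. Of the 1866 windows in which both Cre values passed fl2, 1863 also passed fl1. Scalings that give every library the same level bring the balance near even by their construction, so their values describe what remained and test nothing. When each library was centred on its median, both Cre libraries were above both controls in 18.7% and below in 18.2%, and the group mean was higher after Cre in 51.3%. Quantile normalization gave 20.9% above and 20.0% below. Without fl1, both Cre values were above the remaining control in 15.4% of windows and below it in 60.2%. With 1 library left out there are fewer arrangements, so these 2 shares are not on the same scale as those above.

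The most covered windows were shared in part between libraries. Ranked by cover, the 2000 most covered windows of the Cre libraries had 83.0% in common, those of fl2 had 78.2% and 78.0% in common with Cre1 and Cre2, and those of the controls had 68.7% in common. The fl1 library shared 66.0% and 70.1% of its 2000 with Cre1 and Cre2. As a description across windows, which are not independent, the Spearman correlation of cover over the 11928 windows was 0.87 between the Cre libraries, 0.81 and 0.81 between fl2 and Cre, 0.72 between the controls, and 0.68 and 0.72 between fl1 and Cre. The tested windows were chosen on the mean of all 4 libraries, which the correlations share.

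A cover of at least 10% was reached in all 4 libraries in 4175 windows. In 6620 more it was reached in fl2 and both Cre libraries but not in fl1. The fl2 library alone reached it in 2820 windows, the Cre libraries and neither control in 290, and the controls and neither Cre library in 8. The last 2 sets are part of 2383 windows that reached it in exactly 2 libraries, out of 247215. In all, fl1 reached it in 4203 windows, fl2 in 15716, Cre1 in 12648 and Cre2 in 12472. A set that needs fl1 is thus bounded by its short list. The fl1 library alone reached it in 9. Nearly all the windows that fl1 held, 4175 of 4203, were thus held by the other 3 as well.

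The windows with the largest difference in favour of Cre started at base 128240001 of chromosome 6, bases 38390001 and 26340001 of chromosome 2, base 132600001 of chromosome 4 and base 105500001 of chromosome 7. On chromosome 6 the cover was 16.3% and 49.8% in control and 88.0% and 81.9% after Cre, a difference of 51.9 percentage points. On chromosome 2 from 38390001 it was 0.940% and 54.9% in control and 89.1% and 67.8% after Cre. The window from 26340001 on that chromosome gave 6.90% and 39.2% in control and 81.6% and 64.5% after Cre. It lies in a union domain of 21.8 kb, from 26337552 to 26359356, that had the largest difference among those of 20 kb or more, with 6.62% and 40.6% in control and 73.3% and 58.5% after Cre. By the rule that chose them, the lower Cre value was above the higher control in each of the 5 windows, and the limma test called none of them. The other 2 wide union domains with high values after Cre were on chromosome 7 at 151843748 to 151865648 (8.29% and 59.5% in control, 80.5% and 66.9% after Cre) and on chromosome 15 at 76001902 to 76025638 (5.56% and 34.5%, against 63.5% and 55.0%).

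Windows below both controls were few. The largest difference was on chromosome 3 from 58250001, with 20.8% and 56.9% in control and 14.3% and 20.5% after Cre, a difference of -21.4 percentage points. Ending 9.03 kb before it, a union domain of 22.2 kb at 58218763 to 58240974 had the lowest difference of all those of 20 kb or more outside chromosome 18, at -10.2 points, with 30.9% and 71.6% in control and 39.5% and 42.7% after Cre. There both Cre libraries were far below fl2 and above fl1. The next lowest, on chromosome 13 at 55314677 to 55334797 and chromosome 5 at 151476737 to 151502648, gave 51.2% and 57.6% in fl2 against 28.4% to 34.1% in the Cre libraries, and 19.2% and 20.0% in fl1. The other named windows below both controls started at base 3000001 of chromosome 11, base 31540001 of chromosome 2, base 28290001 of chromosome 7 and base 20000001 of chromosome 8. Their control values ran from 9.40% to 41.6% and their Cre values from 0% to 23.3%. On chromosome 11 the cover was 25.8% and 23.3% in control and 0% and 7.88% after Cre. On chromosome 8 it was 41.6% and 25.6% in control and 23.3% and 13.2% after Cre. In both, fl1 lay above fl2, an order seen in 14 of the 11928 tested windows (0.117%).

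The most covered windows of all were on chromosome 15 from 73000001 and from 61870001, chromosome 4 from 154580001 and from 133300001, and chromosome 8 from 87310001. They were covered to 93.7% or more in fl2 and in both Cre libraries and to 70.7% to 82.7% in fl1.

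The distribution over chromosomes was nearly the same in each library. Chromosome 11 had the highest cover in every library, 1.05% and 4.36% in control and 3.21% and 3.16% after Cre, as a share of the chromosome up to its last peak. Chromosome 1 was covered to 0.470% and 2.23% in control and to 1.36% and 1.48% after Cre. The Spearman correlation of cover over the 19 autosomes was between 0.96 and 0.98 for the 6 pairs, as a description. On each of the 19 autosomes both Cre libraries lay between the controls, with a Cre mean of 0.633 to 0.738 times fl2.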

How the data were processed

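The data are peak lists of H3K79me2 ChIP-seq. Per the labels' protocols, sonicated chromatin was mixed with chromatin of human 293T cells as a spike-in and precipitated with an H3K79me2 antibody. MACS2, Bowtie2, bedtools, HOMER, deepTools and SAMtools (version 1.2) are listed in the submitters' processing notes, as are the mouse build mm9 and the human build hg19, but not which tool did what. By their deposited names, the peaks were called in broad mode for each library separately, with an input. Nothing in the lists shows whether the spike-in was used for scaling, and a list shows only where signal passed a threshold.

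From each deposited list only the chromosome, start and end of each peak were used, on the 19 autosomes of mm9, printed from base 1. Peaks within 1 kb were merged into domains. Library values were compared by exact two-sided permutation tests, and 10 kb windows covered to 10% or more on average by limma 3.58.1 (trend, unpaired) in R 4.3.3. Interval code and the limma fit were tested on simulated data. Regions were named by rule: the 5 widest domains of each library, the 10 widest regions common to all 4, the 5 windows with the largest difference in each direction and the 5 with the most cover, and the 3 union domains of 20 kb or more at each end. Regions on chromosome 18 were counted and not named. The top 2000 windows and the shares by width were added with the data in view, and the members, rules and tests were chosen with earlier results of these data known.

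Alternatives were merging within 3 kb or not at all, a minimum width of 1 kb, equal numbers or lengths of domains, the sex chromosomes, other windows, minimum covers and scalings, a replicate block, and each library left out. SciPy 1.17.1, NumPy 2.4.6 and pandas 2.3.3 ran under Python 3.11.15, with Matplotlib 3.10.9 for plots.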

Additional observations from a re-analysis of the deposited data

How the results depend on the processing

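The 5 tested library values had p-values of 0.333 or more in all 61 alternatives, which the design could not lower. Of these 61, 55 kept their direction. The count includes the replicate block, which leaves the difference of each of the 5 values unchanged and so could not turn it. With domains of at least 1 kb the log2 difference in domain number was 0.26. With each library left out it ran from -1.27 to -0.23 over all domains and from -0.41 to 0.93 over domains of at least 1 kb, the latter chosen after seeing the data, with 0.33 without Cre1 and 0.20 without Cre2. Summed length ran from -0.57 to 1.22, median width from 0.85 to 2.15 (0.06 to 0.31 at 1 kb or more), broad share from -2.78 to 16.8 percentage points and fill from 1.82 to 16.9 points. The pair difference ran from -11.5 to 23.1 points, since leaving out a library removes a pair within a group.

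The limma test called 1 window after centring on library medians, and 0 in all other alternatives with 4 libraries. Its unadjusted p was under 0.05 in 943 of 11928 windows after centring and in 1153 after quantile normalization. With no minimum cover it was under 0.05 in 591 of 112814, and in the remaining alternatives with 4 libraries in at most 22. With each library left out it called from 0 to 7646. Peak names carry the letter A in replicate 1 and B in replicate 2 of both groups, and no label says that letter or number marks a shared batch. Deviations of same-numbered libraries from their group means correlated at -0.24 over the 11928 windows. The crossed pairing gives that value with the other sign, so it does not settle whether batches were shared, and the libraries were not taken as paired. With the replicate block the limma test called 0 windows. The crossed block (fl1 with Cre2), added after seeing the data, also called 0, with 0 at an unadjusted p under 0.05 in either. The share of windows with both Cre above both controls was 9.22% in windows of 50 kb and 3.72% with no minimum cover, and leaving out 1 library at a time gave 15.4% to 99.1%. The share with both below was 0.537% in windows of 5 kb, 0.476% and 0.0840% at minimum covers of 5% and 20%, 8.44% with no minimum, 18.2% after centring, 20.0% after quantile normalization and 1.90% by merged domains, and 0.123% to 60.2% when 1 library was left out. The share of union domain length present in every library used ran from 67.3% to 73.3% when 1 was left out. The causes of these shifts were not tested, and shares with a library left out are not on the same scale as the others. The replicate block changed no call of the library values, where its smallest exact p was 0.5. Read depth is unknown, so precision rests on the spread between libraries alone.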

Other observations

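H3K79me1, the monomethylated form at the same lysine, was read out in 4 further libraries of the same design that had no part in defining the H3K79me2 domains. In union H3K79me2 domains of 20 kb and over, H3K79me1 peaks covered 62.8% and 34.9% of the length in the 2 controls of that mark, and 52.6% and 2.26% in its 2 Cre libraries. Under 2 kb they covered 24.6% and 13.4% in control and 10.4% and 0.422% after Cre. Narrow H3K79me2 domains seen in more libraries had more H3K79me1. Of those under 2 kb seen in 1 H3K79me2 library, 12.1% and 8.75% held some H3K79me1 in the controls, and of those seen in all 4, 73.2% and 78.1%. In H3K79me1 Cre replicate 1 the 2 shares were 4.85% and 63.3%, and in Cre replicate 2 they were 0.270% and 20.1%. At 2 to 5 kb the rise was smaller in the controls, from 82.6% to 98.0% in replicate 1 and from 77.9% to 96.6% in replicate 2. There the shares went from 50.0% to 95.7% in Cre replicate 1 and from 2.33% to 20.7% in Cre replicate 2. Widths within a class were not matched. These are descriptions over regions, and the H3K79me1 lists differ in length, from 1.85 to 117.8 Mb on the autosomes. H3K79me1 was called with another setting than H3K79me2, so the cover values of the marks are not like measures.

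On chromosome X, which was left out above, H3K79me2 peaks covered 0.163% in fl1, 0.991% in fl2, 0.299% in Cre1 and 0.517% in Cre2, and broad domains numbered 0 and 8 in control and 4 and 4 after Cre. Both Cre libraries lay between the controls there too. On chromosome Y the lists held 45 and 52 peaks in control and 0 and 29 after Cre.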
